A study of Homo sapiens with 4 samples.

Results

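The genes of 10 transcription factors that direct myeloid blood cell formation were followed in cells treated with dBET1. They were CEBPA, CEBPB, CEBPD, CEBPE, CEBPG, SPI1, RUNX1, GFI1, IRF8 and MYB, chosen by name, and all 10 were found by Ensembl identifier among the 64252 genes of the count table. RNA was sequenced from 4 libraries of cells that the labels call NB4, an acute promyelocytic leukemia line with the PML-RARa fusion. The cells of 2 libraries were exposed for 24 h to 8 μM dBET1, a degrader that brings BET bromodomain proteins to the E3 ligase adaptor CRBN. Those of the other 2 libraries received the solvent DMSO for 24 h. The libraries of each group are numbered replicates 1 and 2, and nothing in the labels says that they came from separate cultures, so that p-values measure the spread between these libraries, which may be technical.

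The labelled cell type was checked against marker genes. Among 5 genes of promyelocyte granules, ELANE and CTSG had 0 counts in all 4 libraries, MPO had 0 counts in both DMSO libraries, and the 5 genes together summed to between 15 and 55 counts per library. In contrast, all 10 erythroid markers, among them GATA1, KLF1 and the globin genes HBG1 and HBG2, had more than 3 counts in every library. Their sum was 5335 and 6465 CPM (counts scaled by library size) with DMSO, and 3177 and 3127 CPM with dBET1. The name NB4 is thus used here only as the label. The granule genes did not mark the cells as promyelocytes, whereas the erythroid markers were abundant. The identity of the line was not tested. As the libraries are bulk samples, fewer cells of a type and less RNA per cell cannot be told apart.

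Myeloid cells are formed under the control of a small set of DNA-binding proteins. MYB and RUNX1 act in stem and progenitor cells, PU.1 (the product of SPI1) opens the myeloid and lymphoid programs, and C/EBPα, the product of CEBPA, starts granulocyte formation. C/EBPε drives the late neutrophil granule genes, GFI1 is a repressor that favours neutrophils, and IRF8 favours monocytes and dendritic cells. BET proteins bind acetylated chromatin and help transcription to proceed, and MYB is among the genes whose expression in leukemia cells is known to depend on them.

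To find how these genes respond to dBET1, the dBET1 and DMSO libraries were compared over 17971 genes. The test was the quasi-likelihood method of edgeR, with Benjamini-Hochberg adjustment and an adjusted p under 0.05. BET protein levels were not measured in these libraries. MYB and CEBPG fell, CEBPA and GFI1 rose from almost no expression, and the fall of SPI1 was close to the threshold. CEBPB, CEBPD, CEBPE and RUNX1 did not pass the test, and IRF8 was not detected. Of the 10 genes, 9 were tested, of which 2 were higher and 3 were lower. Among all tested genes, 28% were higher and 27.6% were lower, so the share of these genes that was called, 5 of 9, was near the 55.6% of all tested genes. When a log2 fold change beyond 1 was also required, 2 were higher (16.9% of all tested genes) and 1 was lower (8.54% of all tested genes). The dBET1 libraries lay above both DMSO libraries in 3 of the 9 (41.9% of all tested genes) and below both in 4 of the 9 (37.4% of all tested genes). CEBPA and GFI1 reached the count filter through the dBET1 libraries alone, so a tested difference in that direction was built into their selection.

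**Figure D1:**
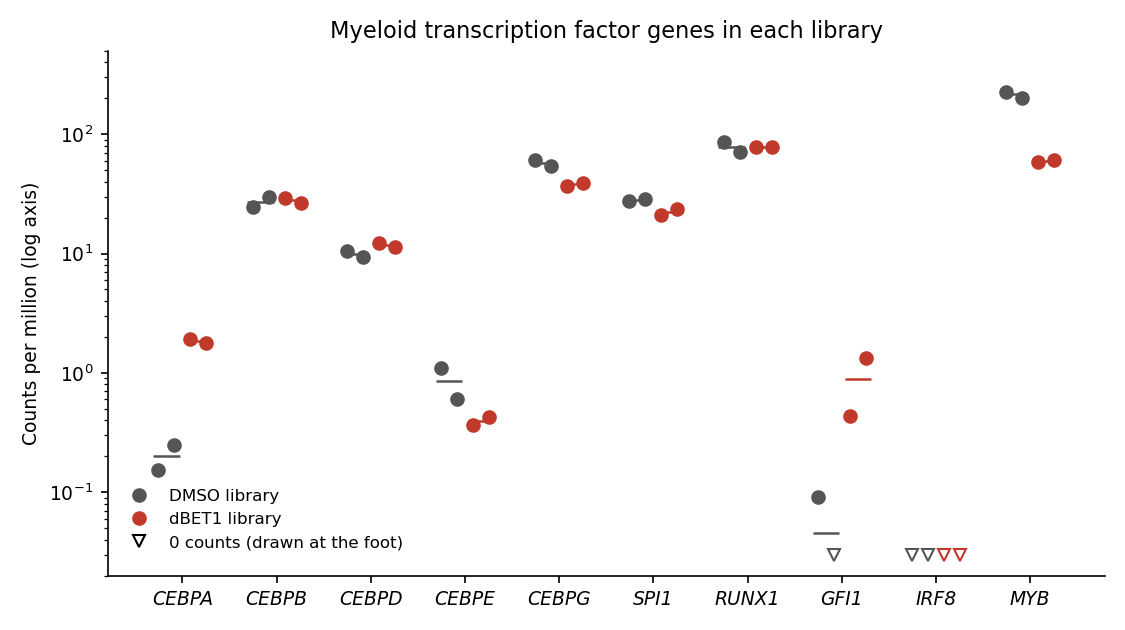
CPM of the 10 genes in each library, on a log axis. Points are libraries (grey DMSO, red dBET1), bars are group means, and open triangles at the foot stand for 0 counts. MYB fell from 227 and 203 to 58.4 and 60.5 CPM, CEBPA and GFI1 rose but stayed at or below 1.93 CPM, and IRF8 had 0 counts throughout.

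MYB (chromosome 6, 135181308 to 135219173, forward strand, hg38) encodes c-MYB, which keeps blood progenitors proliferating and immature. It had 7418 and 5699 counts with DMSO, against 1754 and 1846 with dBET1. In CPM these were 227 and 203 with DMSO against 58.4 and 60.5 with dBET1. The groups did not overlap, and the replicates of each group lay close together. The log2 fold change was -1.85 (SE 0.0870, edgeR adjusted p = 8.74e-06), so that MYB was 3.62-fold lower after dBET1. It was the most abundant of the 10 genes with DMSO, both in CPM and per kb of exon. The antisense gene MYB-AS1 overlaps 103 bases of MYB exons. It had 15 and 3 counts with DMSO, against 11 and 11 with dBET1, few beside those of MYB itself.

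CEBPA (chromosome 19, 33299934 to 33302534, reverse strand) consists of 1 exon. It had 5 and 7 counts with DMSO, against 58 and 54 with dBET1. In CPM these were 0.153 and 0.249 against 1.93 and 1.77. Both dBET1 libraries were above both DMSO libraries, at a level that stayed low. The ratio of the summed counts, scaled for library size, was 9.36 (95% interval 5.15 to 18.7, counting error only). The log2 fold change was 3.19 (SE 0.435, edgeR adjusted p = 0.000589). With DMSO, 12 counts in all carried this comparison. The antisense genes ENSG00000267580 and ENSG00000267727, which overlap the exon of CEBPA, had 0 counts in every library.

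The promoter sequences are shown for the gene that fell most, for CEBPA, which rose, and for CEBPB, whose level hardly moved, since the genes of this set went different ways. Each is the 250 bases before a RefSeq start site (GRCh38.p14), read 5′ to 3′ on the strand of the gene. Capitals mark matches, on either strand, to the short motifs named after the sequences. The windows are chr6:135181058-135181307 on the forward strand for MYB, chr19:33302535-33302784 on the reverse strand for CEBPA, and chr20:50190580-50190829 on the forward strand for CEBPB.
MYB: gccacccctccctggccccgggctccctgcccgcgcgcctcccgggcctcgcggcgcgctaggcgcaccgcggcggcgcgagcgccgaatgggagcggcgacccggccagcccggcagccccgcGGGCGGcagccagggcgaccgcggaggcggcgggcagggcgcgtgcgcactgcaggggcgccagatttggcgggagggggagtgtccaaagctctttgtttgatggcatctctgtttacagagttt
CEBPA: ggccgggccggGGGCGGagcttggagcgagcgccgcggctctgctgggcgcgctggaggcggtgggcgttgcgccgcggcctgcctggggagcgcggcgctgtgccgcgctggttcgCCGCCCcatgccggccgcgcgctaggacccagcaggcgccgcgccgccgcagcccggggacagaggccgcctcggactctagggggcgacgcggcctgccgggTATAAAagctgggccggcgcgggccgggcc
CEBPB: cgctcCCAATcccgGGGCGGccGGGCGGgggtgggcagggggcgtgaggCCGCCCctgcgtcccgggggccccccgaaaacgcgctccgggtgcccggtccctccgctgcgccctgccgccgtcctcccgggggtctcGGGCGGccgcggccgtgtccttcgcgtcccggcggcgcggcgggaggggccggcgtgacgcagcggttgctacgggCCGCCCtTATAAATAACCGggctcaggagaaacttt
All these windows are rich in G and C, at 75.6% for MYB, 81.2% for CEBPA and 77.6% for CEBPB, against a median of 58% over 35116 windows of the same length. The MYB window held 1 GC box and no match to the other motifs. The CEBPA window held 2 GC boxes and 1 TATA box close to the start. The printed CEBPB window held 5 GC boxes, 1 CCAAT box, 1 TATA box and, directly after it without a shared base, 1 match to the MYB motif. Another CEBPB window, chr20:50190333-50190582, is not printed. It held 4 GC boxes and no match to the other motifs. The GC box was searched as GGGCGG, and 42.6% of all windows held it. The TATA box was searched as TATAAA and was held by 10.7% of the windows. For the CCAAT box the letters were CCAAT, with a match in 32% of them. The MYB motif was written TAACNG and matched in 17.6%. A C/EBP motif, TTGCNNAA, matched in 9.05% of all windows. An ETS motif, GGAAGT, was present in 19.5% of all windows. A RUNX motif, TGTGGT, was present in 11% of all windows, and an E box, CACGTG, in 6.34%. The C/EBP, ETS, RUNX and E box motifs were not in the printed windows. A match is a match of letters and not a measured binding site. The RefSeq table held windows for 8 of the 10 genes.

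None of the other 4 C/EBP genes rose by the test. CEBPE (chromosome 14, 23117036 to 23120256, reverse strand) was at a low level, with 36 and 17 counts in DMSO libraries against 11 and 13 with dBET1. These were 1.10 and 0.605 CPM with DMSO, and 0.367 and 0.426 CPM with dBET1. Although the groups did not overlap, the DMSO libraries differed widely from each other. A log2 fold change of -1.11 (95% interval -2.23 to 0.0087) did not pass the test (adjusted p = 0.0839 in edgeR). Without DMSO replicate 2 the value was -1.50, with an adjusted p of 0.0455.

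CEBPG (chromosome 19, 33373685 to 33382686, forward strand) encodes C/EBPγ, a small member that pairs with other C/EBP proteins and with ATF4. It had 60.8 and 53.7 CPM with DMSO, and 37.0 and 39.0 CPM with dBET1. Both dBET1 libraries were below both DMSO libraries. Its log2 fold change was -0.59 (SE 0.0994, edgeR adjusted p = 0.00167), short of 1 in size, and CEBPG passed the test under all 11 alternative settings.

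CEBPB and CEBPD encode C/EBPβ and C/EBPδ, which respond to inflammatory signals and act in monocytes and macrophages. CEBPB (chromosome 20, 50190830 to 50192668, forward strand) had 24.7 and 29.7 CPM with DMSO, and 29.4 and 26.4 CPM with dBET1. The groups overlapped, with a log2 fold change of 0.036 and a 95% interval of -0.26 to 0.34 (adjusted p = 0.830 in edgeR). CEBPB-AS1, which overlaps 231 bases of the CEBPB exon on the other strand, had 16 and 22 counts with DMSO, against 64 and 40 with dBET1, few beside the 805 to 883 counts of CEBPB. CEBPD (chromosome 8, 47736913 to 47738164, reverse strand) had 10.4 and 9.29 CPM with DMSO, and 12.2 and 11.3 CPM with dBET1. The dBET1 libraries were slightly above the DMSO libraries. The change on the log2 scale was 0.25, with a 95% interval of -0.12 to 0.62 (adjusted p = 0.212 in edgeR).

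The family as a whole was set out per kb of exon, where levels of different genes can be compared. The 5 C/EBP genes summed to 37.5 and 37.3 CPM per kb with DMSO, and to 35.8 and 33.9 CPM per kb with dBET1. CEBPG made up 40.0% and 35.6% of this sum with DMSO, and 25.4% and 28.4% with dBET1. CEBPB made up 35.9% and 43.4% with DMSO, and 44.7% and 42.3% with dBET1. CEBPD made up 22.3% and 19.9% with DMSO, and 27.3% and 26.6% with dBET1. The share of CEBPA went from 0.157% and 0.257% to 2.07% and 2.01%, so that CEBPB, CEBPG and CEBPD made up nearly all of the family in each library.

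**Figure D2:**
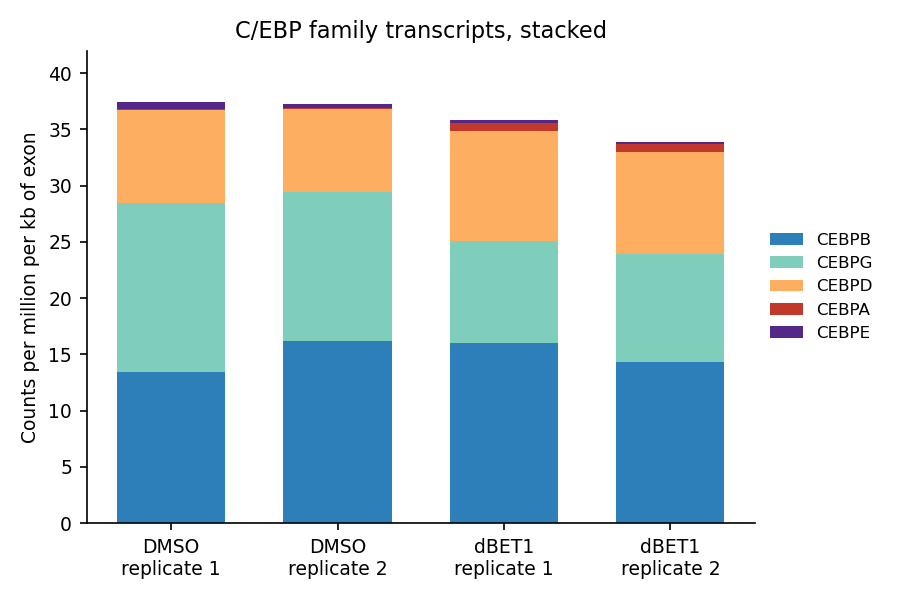
Stacked bars of the 5 C/EBP genes in each library, in CPM per kb of merged exon length. The height of the bars went from 37.5 and 37.3 with DMSO to 35.8 and 33.9 with dBET1, the CEBPG part became smaller, and the CEBPA part is a thin band with dBET1.

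SPI1 (chromosome 11, 47354860 to 47378547, reverse strand), which encodes PU.1, had 904 and 809 counts with DMSO, against 629 and 727 with dBET1. In CPM these were 27.7 and 28.8 against 21.0 and 23.8. The groups did not overlap, but the difference was small. The log2 fold change was -0.34 (SE 0.117, edgeR adjusted p = 0.0409). The call was lost with DESeq2 (adjusted p = 0.0596), with total counts only (adjusted p = 0.404), without dBET1 replicate 1 (adjusted p = 0.305) and under other settings, and the adjusted p ran from 0.0257 to 0.404 over all of them.

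RUNX1 (chromosome 21, 34787801 to 36004667, reverse strand) encodes the DNA-binding part of core binding factor. It had 85.9 and 70.8 CPM with DMSO, and 77.4 and 78.2 CPM with dBET1. The dBET1 libraries lay between the DMSO libraries. The log2 fold change was -0.011 with a 95% interval of -0.26 to 0.23 (adjusted p = 0.939 in edgeR).

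GFI1 (chromosome 1, 92473043 to 92486925, reverse strand) was covered by few reads, with 3 and 0 counts in DMSO libraries against 13 and 41 with dBET1. The dBET1 libraries were above the DMSO libraries but differed from each other, at 0.433 and 1.34 CPM. The ratio of the summed counts was 18.1, with a 95% counting interval of 5.86 to 90.3. The fitted log2 fold change of 4.07 (SE 0.979, edgeR adjusted p = 0.00901) did not pass without dBET1 replicate 2 (3.04, adjusted p = 0.0976) or with no filter on low counts (4.02, adjusted p = 0.0609), and GFI1 was not tested with counts divided by 2 or with at least 10 counts in every sample. IRF8 (chromosome 16, 85899116 to 85922606, forward strand) had 0 counts in all 4 libraries. At this depth a count of 0 allows a level of up to 0.0919 to 0.107 CPM in a library.

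**Figure D3:**
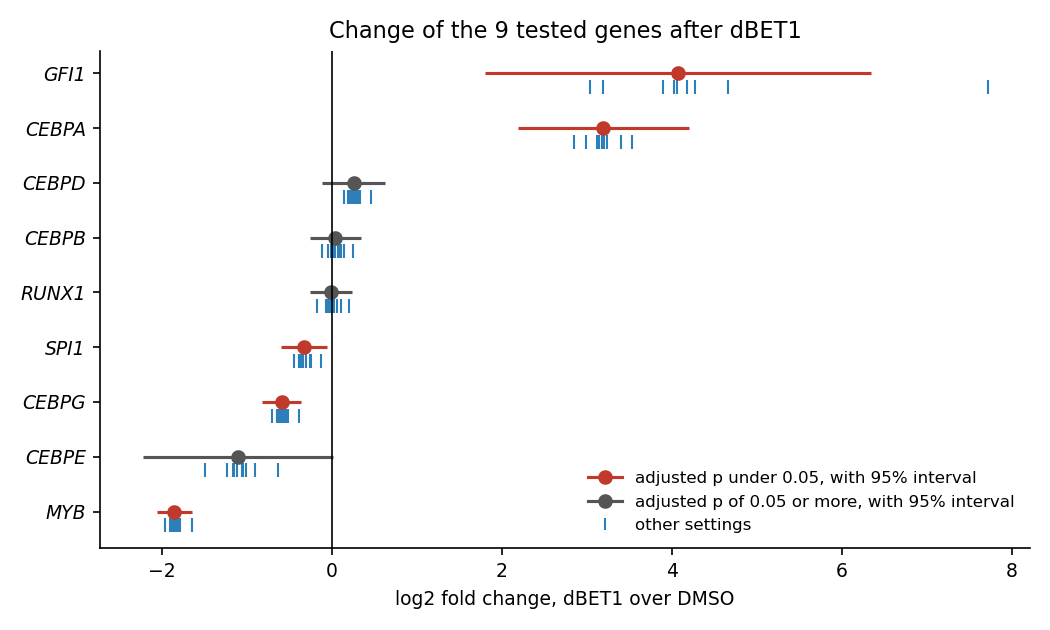
Log2 fold change of the 9 tested genes, dBET1 over DMSO. Points and lines are the value and its 95% interval (red for an adjusted p under 0.05), and blue ticks are the values under other settings; the tick of GFI1 at 7.71 is from the setting in which the only DMSO library left had 0 counts, and its size depends on the fit. MYB and CEBPG lie below 0 and CEBPA and GFI1 above 0 under each setting that tested them, while CEBPB and RUNX1 lie around 0.

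Ordered by level per kb of exon with DMSO, MYB came first at 39.1 ± 3.16 CPM per kb (SD, n = 2), rank 1327 of 56105 annotated genes. CEBPB (14.8 ± 1.92), CEBPG (14.1 ± 1.23) and SPI1 (13.8 ± 0.376 CPM per kb; SD, n = 2 for each) followed, and neighbours among these overlapped in their libraries. CEBPD stood at 7.88 ± 0.657 and RUNX1 at 5.03 ± 0.685 CPM per kb (SD, n = 2 for each), each apart from its neighbours. CEBPE, at 0.484 ± 0.200 CPM per kb, and CEBPA, at 0.0773 ± 0.0261 CPM per kb (SD, n = 2 for each), were far below. After dBET1 the order was CEBPB (15.2 ± 1.17), SPI1 (11.0 ± 0.990) and MYB (10.8 ± 0.261 CPM per kb; SD, n = 2 for each), and SPI1 and MYB overlapped. MYB was then at rank 3776 of all annotated genes, while CEBPA had risen above CEBPE, at 0.712 ± 0.0445 against 0.225 ± 0.0238 CPM per kb (SD, n = 2 for each). The order depends on the length used. When the length of the canonical transcript was taken instead of all merged exons, RUNX1, which has long alternative exons, rose to 13.1, SPI1 to 20.6 and MYB to 58.4 CPM per kb with DMSO. CEBPG was then at 15.3, CEBPE at 0.717 and GFI1 at 0.0101 CPM per kb. With dBET1 the order by canonical transcript began with SPI1 at 16.3, MYB at 16.1 and CEBPB at 15.2 CPM per kb.

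Genes that work with these factors were examined as a list of 36 partners, paralogs and cofactors, of which 30 were tested. Of these, 14 were lower, 5 were higher and 11 did not pass, with a median log2 fold change of -0.34 against 0.048 over all tested genes, of which 27.6% were lower and 28% higher. With total counts only, the median of all genes moved to 0.26, and 9 of the list were lower and 10 were higher. The median relative to all genes was -0.39 under either scaling. A change of scaling moves all genes by about the same amount, so this value could not tell the scalings apart. All 7 genes of the GFI1 group were tested. This group is its paralog GFI1B and the corepressors that GFI1 proteins recruit. Of these, 6 were lower and 0 higher, with a median of -0.50, and 4 were lower and 0 higher with total counts only. GFI1B, an erythroid and megakaryocytic repressor, had 97.9 and 103 CPM with DMSO, and 68.6 and 73.9 CPM with dBET1. Thus GFI1B was far more abundant than GFI1 in every library. HDAC3 had a log2 fold change of -0.67 and HDAC2 of -0.50, while RCOR1, at -0.18, did not pass the test (adjusted p = 0.115 in edgeR).

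Of 7 partners and regulators of C/EBP proteins, 4 were lower (27.6% of all tested genes) and 0 were higher (28% of all tested genes). Under total counts, however, 2 were higher and 2 lower. TRIB3, a pseudokinase of the stress response, fell from 112 and 108 CPM to 42.3 and 37.8 CPM, a log2 fold change of -1.46 (adjusted p = 1.93e-05 in edgeR). CEBPZ fell by 0.65 and ATF4, a leucine zipper partner of C/EBPγ, by 0.35 on the log2 scale. TRIB1 and TRIB2, whose products lead C/EBPα to degradation together with COP1, did not pass the test, at 0.33 and -0.23, whereas COP1 itself fell by 0.33 on the log2 scale (adjusted p = 0.0125 in edgeR).

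The MYB paralogs went opposite ways. MYBL2, the paralog used by dividing cells, had 287 and 311 CPM with DMSO, and 153 and 149 CPM with dBET1. Its log2 fold change was -0.99 (adjusted p = 3.97e-05 in edgeR). MYBL1 had 1.35 and 1.07 CPM with DMSO, and 6.03 and 7.47 CPM with dBET1, a log2 fold change of 2.47 (adjusted p = 0.000192 in edgeR). CREBBP, a coactivator that MYB binds, rose by 0.43 on the log2 scale, and EP300, at 0.30, did not pass the test.

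For RUNX1, its partner subunit gene CBFB had 96.7 and 93.2 CPM with DMSO, and 108 and 117 CPM with dBET1, a log2 fold change of 0.25 (adjusted p = 0.0320 in edgeR). CBFA2T3, a corepressor of the ETO family, fell by 0.63 on the log2 scale, and RUNX1T1 had 0 counts in every library. Among 12 ETS and IRF relatives, 8 were tested, with 2 higher (28% of all tested genes) and 2 lower (27.6% of all tested genes). IRF1 rose from 7.48 and 9.50 CPM to 16.8 and 16.1 CPM, and IRF2 rose by 0.64 on the log2 scale, while ETS2 fell by 0.60 and ETV6 by 0.41. SPIC, FLI1 and ETS1 had 0 counts in all libraries.

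**Figure D4:**
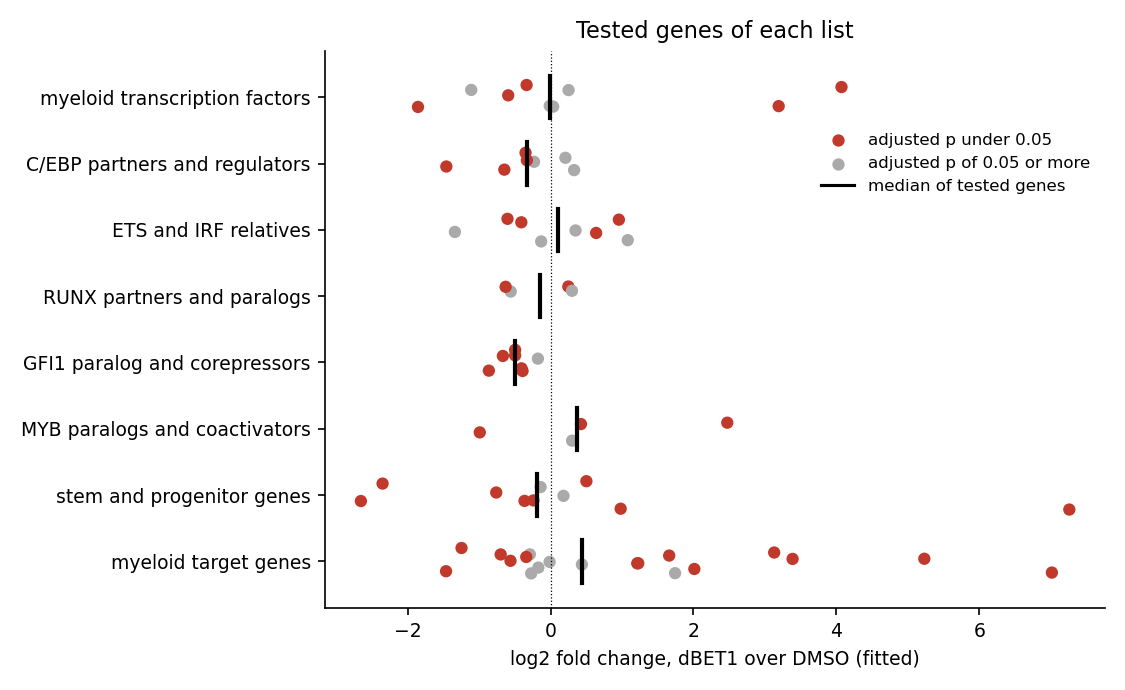
Log2 fold changes of the tested genes of each list, with red points for an adjusted p under 0.05 and black bars for the median. The GFI1 group lies below 0 in full, and the myeloid target genes reach far to the right; values above 7 are fitted against 0 counts with DMSO and are not bounds.

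Genes of stem and progenitor cells, many of which MYB, RUNX1 or their partners are known to regulate, numbered 16, and 10 were tested. Of these, 5 were lower, 3 were higher and 2 did not pass, beside 27.6% lower and 28% higher among all tested genes. Of the 3 higher genes, 1 reached the filter through the dBET1 libraries alone. The median log2 fold change of the tested genes was -0.19. Scaling to total counts turned the balance to 4 higher and 3 lower, and the median to 0.020. Relative to all genes the median was -0.24 under either scaling, a value that a change of scaling could hardly move. KIT, the stem cell factor receptor, had 255 and 114 counts with DMSO, against 30 and 27 with dBET1. Its log2 fold change was -2.65 (adjusted p = 0.000707 in edgeR). LMO2, which bridges blood transcription factor complexes, fell from 46.9 and 48.6 CPM to 10.6 and 8.12 CPM, a log2 fold change of -2.35 (adjusted p = 1.78e-05 in edgeR). LYL1 fell by 0.76 on the log2 scale. In the other direction, the homeobox gene HHEX rose from 109 and 113 CPM to 216 and 222 CPM, and BCL2 rose by 0.50 on the log2 scale. CD34, HOXA9, SOX4 and BAALC had 0 counts in every library.

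Target genes of the myeloid factors, namely receptors, granule proteins and phagocyte enzymes, numbered 39. Of these, 19 were tested, 14 had at most 3 counts in every library, and 8 had 0 counts in every library. Among those tested, 8 were higher, 5 were lower and 6 did not pass, with a median log2 fold change of 0.44, beside 28% higher and 27.6% lower among all tested genes. All 8 of the higher genes were past a log2 fold change of 1 (16.9% of all tested genes), but 3 of them reached the filter through the dBET1 libraries alone. ITGAM, the CD11b integrin chain, had 22 and 9 counts with DMSO, against 170 and 152 with dBET1, a log2 fold change of 3.39 (adjusted p = 0.000188 in edgeR). IL6R, the interleukin receptor gene that C/EBPα is known to activate, had 18 and 16 counts with DMSO, against 132 and 167 with dBET1. FCGR1A, a high-affinity receptor for IgG, had 6 and 0 counts with DMSO, against 144 and 87 with dBET1, although its reads can be shared with near-identical copies. MPO had no count with DMSO and 22 and 10 counts after dBET1. With 3 counts allowed over the DMSO group, the scaled ratio was 10.7, the dBET1 sum being taken as exact.

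The 5 target genes that were lower included phagocyte genes with counts in every library. CD68, a lysosomal glycoprotein of macrophages, fell from 16.6 and 22.6 CPM to 5.86 and 8.35 CPM. LYZ, which encodes lysozyme, fell from 18.4 and 17.4 CPM to 10.8 and 11.3 CPM, and CTSS fell by 1.25 on the log2 scale. CSF3R, the G-CSF receptor and a target of C/EBPα, had 62 and 60 counts with DMSO, against 56 and 45 with dBET1, and did not pass the test (adjusted p = 0.468 in edgeR). The late granule genes CAMP, LCN2 and MMP8, which depend on C/EBPε, had 0 counts in every library. Beside these results, the 5 monocyte markers CD14, LYZ, CSF1R, FCGR1A and ITGAM, all of them on the target list too, summed to 19.9 and 18.4 CPM with DMSO and to 22.7 and 21.1 CPM with dBET1. LYZ made up most of these sums and fell, while the other 4 were higher by the test and together went from 1.50 and 0.961 CPM to 11.9 and 9.79 CPM. Among them, CD14 had 18 and 14 counts with DMSO and 27 and 48 after dBET1, and CSF1R 3 and 4 against 17 and 12. CSF1R and FCGR1A reached the count filter through the dBET1 libraries alone, so a call in that direction was built into their selection. The call of CD14 was close to the threshold (adjusted p = 0.0444 in edgeR). The 5 promyelocyte markers summed to 0.521 and 0.534 CPM with DMSO and to 1.83 and 0.819 CPM with dBET1. The part of a change in cell types in these results was not tested.

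Finally, the genes nearest in pattern were sought by the Euclidean distance of centred log2 CPM over the 4 libraries, a measure that mostly reflects the size of the change. For MYB these were PLD6, MLLT3 and ARHGDIB, at distances of 0.0466, 0.0637 and 0.0709. For CEBPA they were LYRM9, PLXDC1 and REEP2, at distances of 0.108, 0.115 and 0.141.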

How the data were processed

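Per the labels and the paper's methods, paired-end libraries were made for 2 dBET1 and 2 DMSO samples, and the authors aligned the reads with HISAT2 (version 2.2.0) to hg38 and ran StringTie. They deposited 1 table of whole-number counts per Ensembl gene, not normalized. How abundances became counts, and whether strand was used, is not given in the sources used here. It is thus not known whether reads from the overlap of a gene and its antisense gene were assigned by strand. The counts printed for antisense genes carry this limit. If the step from abundances to counts assumed another read length than the one sequenced, all counts would be scaled by 1 factor. That would change the printed counts, limits and counting intervals, and counts divided by 2 were run for this reason. Columns were matched to samples by group, time and replicate number; the control columns are headed NC, not DMSO, and were taken as DMSO as the only other group (0 columns left out, 0 rows without a gene). Totals were 28019956 to 34685645 counts per library. Replicates differed beyond sampling noise, with a chi-square per degree of freedom of 23.6 (DMSO) and 8.14 (dBET1) over genes whose pair held 100 counts or more.

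Counts were filtered with filterByExpr (minimum count 10), scaled with TMM factors (0.918 to 1.08) and tested with edgeR 4.0.16 in R 4.3.3, with the group as the only term and Benjamini-Hochberg adjustment over all tested genes. The factors were 0.941 and 0.918 for the DMSO libraries, and 1.07 and 1.08 for the dBET1 libraries. CPM use these scaled library sizes. Levels and changes are therefore relative to the other RNA of a library, and a change in total RNA per cell was not tested. Standard errors are the log2 fold change divided by the square root of F, and 95% intervals use the t quantile of the fit. Intervals and limits on counts cover counting error only, and a count of 0 was taken to allow 3 counts. Symbols, positions and exon lengths are from GENCODE release 44 (hg38), which held 56105 of the identifiers. Promoter windows are from RefSeq. The fitting step was tested on simulated data.

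The 10 genes and the lists were chosen with earlier results of these data known, and lists are described by counts and medians, without a test of the list. Named are the 10 genes, markers, overlapping genes, nearest patterns, and up to 3 genes per list and direction with the smallest adjusted p; 1 gene of the stem and progenitor list is not reported here by name. COP1, TRIB1, TRIB2, RCOR1, EP300, CSF3R, CD14, CSF1R and genes named for 0 counts were chosen after their values were seen. The settings varied were the tool (DESeq2 1.42.0), the scaling (DESeq2 size factors, or total counts), the count filter, a replicate block, leaving out single libraries, a fold change limit and counts divided by 2. Gene length from the canonical transcript was added after seeing the data.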

Additional observations from a re-analysis of the deposited data

How the results depend on the processing

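Of 95 values of the 9 tested genes under other settings, 77 kept their direction and their side of the threshold, among them all values of MYB, CEBPA and CEBPG. MYB ran from -1.97 to -1.65, CEBPG from -0.71 to -0.38 and CEBPA, which could not be tested with at least 10 counts in every sample, from 2.85 to 3.53. The causes of the changes below were not tested.

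Total counts only moved the median log2 fold change of all genes from 0.048 to 0.26, and 65.2% of calls were then higher genes against 50.4%; SPI1 was then -0.12 and not called, CEBPD 0.46 and called, and RUNX1 0.20. Relative to that median, SPI1 was -0.38 and RUNX1 -0.060, as with TMM factors (-0.38 and -0.058). A change of scaling moves all genes by about the same amount, so these relative values could hardly differ. SPI1 was not called either with DESeq2 (-0.37), with no count filter (-0.39), with at least 10 counts in every sample (-0.26), with counts divided by 2 (-0.30), or without either dBET1 library, and was -0.44 to -0.25 in fits without 1 library. RUNX1 changed sign with at least 10 counts in every sample (0.060), with counts divided by 2 (0.019) and without DMSO replicate 1, within -0.17 to 0.11 in such fits. CEBPB changed sign with no filter (-0.018) and in such fits (-0.12 to 0.14). CEBPE ran from -1.50 to -0.63 and was called only without DMSO replicate 2, and GFI1 ran from 3.04 to 7.71, not called without dBET1 replicate 2 or with no filter (4.02).

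Of the 10 genes, 2 were higher and 3 lower; with no filter 1 was higher, with counts divided by 2 (GFI1 not being tested) also 1, with at least 10 counts in every sample 0 were (CEBPA and GFI1 not being tested), and in fits without 1 library 1 to 2 were, with 1 without dBET1 replicate 2. Past the fold limit 1 was lower. Calls over all tested genes moved with the settings as well, and the counts of the lists are to be read beside them. They were 5038 higher and 4953 lower of 17971 genes in the main fit. With total counts they were 6703 and 3573 of 17971, and with no filter 3459 and 4350 of 33380. With at least 10 counts they were 4320 and 4424 of 15250, and with counts divided by 2 they were 4805 and 4752 of 16009. Past the fold limit they were 3032 and 1535 of 17971. Partners and paralogs had 5 higher, but 10 with total counts, 3 with no filter, 8 with at least 10 counts, 1 past the fold limit and 3 to 7 without 1 library (3 without either dBET1 library); they had 14 lower, but 9 with total counts and 1 past the fold limit. Stem and progenitor genes had 3 higher, 1 past the fold limit, and 5 lower, but 3 with total counts, 2 past the fold limit and 3 to 5 without 1 library (3 without either dBET1 library). Myeloid targets had 8 higher, but 5 with no filter, 4 with at least 10 counts and 5 to 7 without 1 library (5 without dBET1 replicate 2), and 5 lower, but 3 with total counts, 2 past the fold limit and 3 to 6 without 1 library (3 without dBET1 replicate 2).

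The replicate numbers are not stated to mark a shared batch, and replicate differences of the groups correlated at -0.052 over 11967 genes. With the replicate number as a block, 4976 genes were higher and 4897 lower against 5038 and 4953, 2 of the 10 genes were higher and 3 lower, MYB was -1.85, and no call of the 10 genes changed.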
